A study of Homo sapiens with 6 samples.

Results

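The 3 Vector libraries of MDA-MB-231 cells are described here as the resting transcriptome of the line. They were chosen by their titles and make up 3 of the 6 libraries of the series, and no expression value entered the choice. MDA-MB-231 is an established breast cancer line of the triple-negative subtype, which lacks the oestrogen, progesterone and HER2 receptors. Vector cells are labelled as treated with DMSO, the solvent of many drugs, and the other 3 libraries, called CB1 here, are labelled as treated with CB1, the cannabinoid receptor that the study overexpressed. The methods describe lentiviral transduction with a pCDH plasmid for the overexpressing lines and puromycin selection of stable lines as pooled clones. The study's control line is described as MDA-MB-231 cells that stably carry the empty vector. Both groups share the cell line and the breast cancer tissue label. No label states that the 3 Vector libraries came from separate cultures, and the p-values below then measure only the spread between these libraries, which may be technical.

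Breast epithelium is built from an inner luminal layer, marked by the keratins KRT8, KRT18 and KRT19 and by hormone receptors, and an outer basal layer, marked by KRT5, KRT14 and the transcription factor TP63. Triple-negative tumours often resemble the basal layer in their transcripts. A subset of their cell lines instead expresses vimentin and other genes of mesenchymal cells and has little E-cadherin and few claudins, the proteins that seal cells together. MDA-MB-231 is commonly placed in that mesenchymal subset and is known for a loss at CDKN2A.

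Total counts were 16957881 in Vector 1, 17447521 in Vector 2 and 17199949 in Vector 3. A count of 0 in 1 library allows up to 0.172 to 0.177 counts per 1000000 (CPM), taken as 3 counts of the total, and such limits cover counting error only. Levels are given in FPKM, fragments per kilobase of exon per 1000000 reads, which scales counts by gene length. That length covers all annotated exons of a gene merged, whether or not the cells use them. Ranks and levels compared between genes are therefore approximate. A value of ± is the SD over the 3 libraries, and where 3 values are listed they belong to Vector 1, 2 and 3 in that order. CNR1, which encodes CB1, had 7, 6 and 4 counts in the Vector libraries (0.0513 ± 0.0138 FPKM), and CNR2, the other cannabinoid receptor, had 1, 1 and 0 counts. Both receptors were therefore near the floor of detection in Vector cells. The libraries were close to each other, but Vector 1 stood slightly apart, as described with the spread between libraries below, and leaving out each library in turn changed the number of protein-coding genes at 1 FPKM little (10800 to 10815).

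Of 19951 protein-coding genes, 10805 (54.2%) reached a mean of 1 FPKM, and the number per library was between 10775 and 10819. Among the 19938 protein-coding genes of the nuclear chromosomes, 8 had at least 1000 FPKM, 275 had 100 to 1000, 4301 had 10 to 100 and 6208 had 1 to 10 FPKM. Another 5334 lay below 1 FPKM with some counts and 3812 had no count in any library. The median of all nuclear protein-coding genes was 1.70 FPKM, which serves below as the level against which a list of genes is read. Reads were spread over many genes, since the 100 genes with the most counts held 18.3 ± 0.0940% of them and 1112 to 1133 genes were needed to reach 50% of the counts.

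Transcripts of the mitochondrial genome, which encodes subunits of the respiratory chain and of the ATP synthase, held the first ranks of all genes. MT-CO2, a subunit of cytochrome c oxidase, led with 10842, 11065 and 11091 FPKM. MT-CO1 had 9827, 9998 and 9833 FPKM and MT-CO3, of the same enzyme, 9288, 9641 and 9903 FPKM. The 3 libraries differed little in these genes, and all 37 mitochondrial genes together took 6.59 ± 0.0248% of the counts and 25.5 ± 0.114% of the FPKM sum. MT-ND4L, MT-ATP6, MT-ND3 and MT-ND4 had means of 8092, 7082, 5209.6 and 4948 FPKM, MT-ND2, MT-CYB and MT-ND1 had 3816, 2212 and 2206 FPKM, and MT-ND6 and MT-ND5 had 1509.7 and 1365 FPKM. The ribosomal RNAs MT-RNR2 and MT-RNR1 were at 3937 and 815 FPKM and the transfer RNAs MT-TC and MT-TN at 1704 and 1376 FPKM. FPKM divides by length, so these short genes weigh more in the FPKM sum than in the counts.

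Among nuclear protein-coding genes, EEF1A1, S100A6 and FTL had the highest means. EEF1A1, the factor that brings aminoacyl-tRNA to the ribosome, had 1523, 1628 and 1601 FPKM and held the first rank among nuclear protein-coding genes. S100A6, a calcium-binding protein, had 1396, 1538 and 1539.6 FPKM and FTL, the light chain of the iron store ferritin, had 1454, 1454 and 1449 FPKM. S100A6 was lowest in Vector 1, where it lay below FTL, and above FTL in the other libraries. TMSB4X and TMSB10, which bind monomeric actin, had 1267 and 1109.7 FPKM as means, and ACTB, the actin itself, had 1059 FPKM. MT2A, a metallothionein that binds zinc and copper, had 1143, 1084 and 1164 FPKM. HMGA1, an architectural chromatin protein that is low in most adult tissues, had 1139, 1074 and 1066 FPKM and was the only gene of a transcription factor family above 1000 FPKM. GAPDH of glycolysis followed with 874 FPKM, then RPL41 with 760.2 FPKM and IGFBP4, a secreted binder of insulin-like growth factors, with 743 FPKM. HSP90AB1, a chaperone, had 629 FPKM. CYR61, a matrix protein that is a known target of the YAP coactivator, had 564, 587 and 582 FPKM and also stood among the 15 highest nuclear protein-coding genes. ANKRD1, another known target of YAP and named after its value was seen, reached 342 FPKM.

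**Figure D1:**
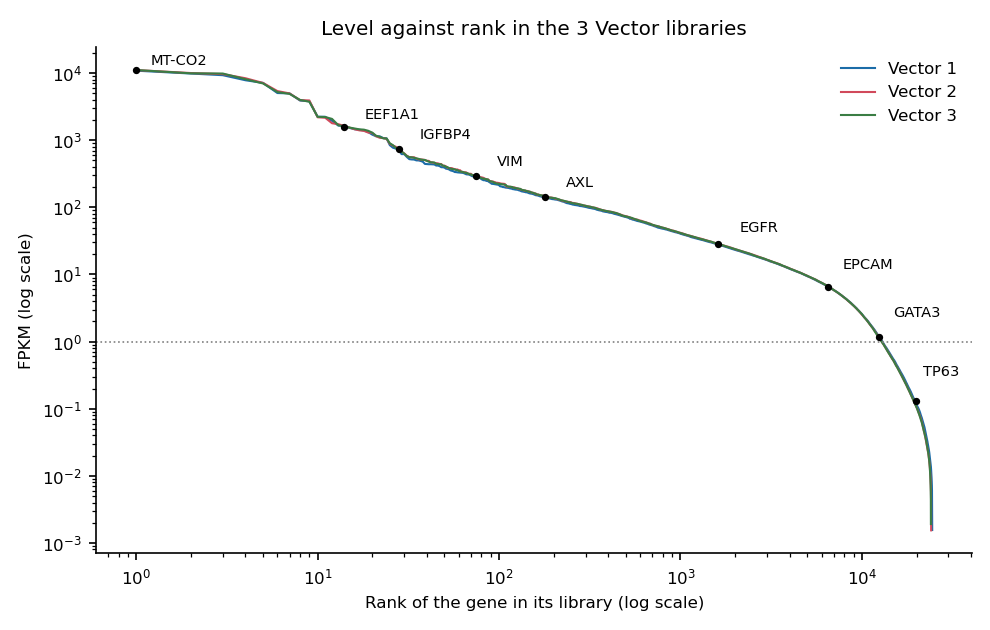
FPKM of each gene (vertical, log scale) against its rank in its library (horizontal, log scale), with 1 line for each of the 3 Vector libraries and dots at the mean of 9 named genes. The 3 lines lie on each other over most of the range. MT-CO2 and EEF1A1 stand at the top, EGFR at 28.1 FPKM lies between them and the dotted line and TP63 lies below that line, drawn at 1 FPKM.

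Transcripts of ribosomal proteins and of several translation factors are known to begin with a 5′ terminal oligopyrimidine tract (TOP), a C followed by an unbroken run of C and T that couples their translation to growth signals. The bases around the RefSeq start site are shown for abundant members of that class beside abundant genes of other classes, since the ribosomal protein genes also moved together between the libraries (below). Each line holds 15 bases before the start and 15 from the start on, on the sense strand of GRCh38.p14 as given by RefSeq, with capitals for a tract of a C and at least 4 further pyrimidines at the start.
RPL41, chr12:56116618-56116647 (+ strand): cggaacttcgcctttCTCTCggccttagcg
RPL13A, chr19:49487593-49487622 (+ strand): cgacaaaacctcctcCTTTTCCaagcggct
RPS18, chr6:33272060-33272089 (+ strand): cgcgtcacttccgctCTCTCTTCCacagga
RPS12, chr6:132814554-132814583 (+ strand): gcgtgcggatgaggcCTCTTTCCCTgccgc
EEF1A1, chr6:73521018-73521047 (- strand): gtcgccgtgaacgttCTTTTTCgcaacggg
EEF2, chr19:3985449-3985478 (- strand): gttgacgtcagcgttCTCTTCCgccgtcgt
S100A6, chr1:153535977-153536006 (- strand): actgcgacacagcccatcccctcgaccgct
FTL, chr19:48965294-48965323 (+ strand): tagccacgtcccctcgcagttcggcggtcc
GAPDH, chr12:6535249-6535278 (+ strand): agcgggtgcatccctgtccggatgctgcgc
VIM, chr10:17228226-17228255 (+ strand): gtgcaatcgtgatctgggaggcccacgtat
The 4 ribosomal protein genes and both elongation factors begin with such a tract, and S100A6, FTL, GAPDH and VIM do not. RPL41, the smallest ribosomal protein, had 718, 796 and 766 FPKM, RPL13A had 619.8, 680.3 and 675 FPKM, RPS18 had 522, 559.5 and 555 FPKM and RPS12 had 499, 557 and 546 FPKM. EEF2, the translocation factor, had 376, 371 and 378 FPKM. The 4 ribosomal protein genes and EEF1A1 were lowest in Vector 1 and EEF2 was not. Over the table of start sites, 47 of the 63 ribosomal protein genes with an entry (74.6%) had the tract at a listed start, searched on the sense strand only as a C followed by at least 4 letters C or T, against 1357 of the other 27242 genes (4.98%). Within 5 bases of the start the shares were 85.7% and 25.1%. A match is a description of the letters and no measure of translation, and 16 of the 79 ribosomal protein genes had no entry.

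Of 1548 genes in transcription factor families, 875 reached 1 FPKM, 208 lay between 10 and 100 FPKM and 7 above 100 FPKM. After HMGA1 came YBX1, a cold-shock domain protein, with 328, 331 and 331 FPKM, and FOSL1, the FRA-1 subunit of AP-1, with 223, 229.7 and 222 FPKM. CNBP, HIF1A and ATF4 followed at 199.6, 180.1 and 134 FPKM as means. HIF1A is the oxygen-regulated subunit of the hypoxia factor and ATF4 drives the response to amino acid shortage. Several other AP-1 subunits, named after their values were seen, were abundant too, with 61.8 FPKM for JUN, 49.6 FPKM for FOSL2 and 39.1 FPKM for JUND. MYC had 75.2, 75.1 and 72.7 FPKM, ETS1 had 44.6 FPKM and FOXM1, a factor of dividing cells, had 40.2 FPKM.

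The lineage genes were examined first for the hormone receptors that define the subtype. ESR1, the oestrogen receptor, had 1, 5 and 5 counts and PGR, the progesterone receptor, 8, 15 and 9 counts. ERBB2, which encodes HER2, was expressed at 8.33, 8.16 and 8.27 FPKM in all 3 libraries. Of the 6 genes of the HER2 amplicon, ORMDL3 and STARD3 had 13.8 and 12.1 FPKM as means and GRB7 had 1.54 FPKM, so ERBB2 ranked 4 of 6. Both hormone receptors that define the subtype were thus at or near the floor of detection.

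Luminal markers were split between structural keratins and regulators. Of the 25 luminal genes, 12 reached 1 FPKM and 5 reached 10 FPKM, and the median of the list was 0.68 FPKM, below the median of all nuclear protein-coding genes. The simple-epithelial keratins KRT18, KRT7, KRT8 and KRT19 were the highest, with 61.4, 66.0 and 64.6 FPKM for KRT18, 62.0, 65.2 and 63.0 FPKM for KRT7, 61.5, 58.1 and 58.8 FPKM for KRT8 and 42.8, 45.2 and 45.2 FPKM for KRT19. KRT18 overlapped KRT7 and KRT8 in range, whereas KRT7 was above KRT8 and KRT8 above KRT19 in all 3 libraries. XBP1, a factor of the unfolded protein response and of luminal cells, had 23.4 ± 0.302 FPKM. The pioneer factors GATA3 and FOXA1, which specify luminal cells, had 1.25, 1.15 and 1.13 FPKM for GATA3 and 0.538, 0.645 and 0.568 FPKM for FOXA1. EPCAM, an epithelial adhesion molecule, had 6.52, 6.98 and 6.33 FPKM, whereas CDH1, which encodes E-cadherin, had 1, 2 and 3 counts. The splicing regulators ESRP1 and ESRP2, which epithelial cells use, had 0.0750 and 1.48 FPKM as means.

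The basal list was likewise split. Of 25 basal and myoepithelial genes, 11 reached 1 FPKM, 7 reached 10 FPKM and 6 had no count, with a median of 0.33 FPKM. CAV1, the coat protein of caveolae, had 84.2, 95.0 and 92.3 FPKM. LAMB3, a chain of an epithelial laminin, had 79.3, 77.3 and 78.8 FPKM, and EGFR, the receptor of epidermal growth factor, had 28.98, 26.5 and 28.8 FPKM. LAMA3, another chain of that laminin, had a mean of 13.2 FPKM, and ITGA6 and ITGB4, the integrin that binds it, had 24.1 and 9.14 FPKM. The genes that define the basal layer were at or near 0. KRT5, KRT14, KRT6A, KRT6B and KRT16 had no count in any library, KRT17 had 1, 0 and 2 counts, and TP63 had 16, 21 and 13 counts (0.129 ± 0.0301 FPKM). The basal label thus went with matrix, caveolar and growth factor receptor genes and against the keratins and TP63, and the cells are called Vector cells below.

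The mesenchymal list had the highest median of the 3 lineages. Of 30 genes, 16 reached 1 FPKM and 10 reached 10 FPKM, with a median of 1.14 FPKM, which also lay below the median of all nuclear protein-coding genes. VIM, the vimentin of mesenchymal filaments, had 285, 297 and 287 FPKM, with 24.4% of its exonic bases shared with other genes. MSN, a linker of actin to the membrane, had 270.1, 280.2 and 280.0 FPKM. AXL, a receptor tyrosine kinase, had 146, 140.0 and 146 FPKM. FN1, which encodes fibronectin, had 55.3, 54.7 and 54.9 FPKM. Among the factors that drive the transition to a mesenchymal state, ZEB1 was the highest with 15.9, 16.7 and 16.5 FPKM, and SNAI2 and SNAI1 had means of 1.64 and 1.22 FPKM. ZEB2 was at 0.749 ± 0.0568 FPKM, TWIST1 was at 0.0377 FPKM and TWIST2 had no count. N-cadherin, the product of CDH2, had 9, 25 and 10 counts, so neither of the cadherins that are set against each other in this transition was well detected.

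The medians of the lists were compared on the log2(FPKM + 1) scale within each library. The mesenchymal median exceeded the luminal one by 0.19, 0.40 and 0.34 in Vector 1, 2 and 3 (0.31 ± 0.10) and the basal one by 0.70, 0.68 and 0.69 (0.69 ± 0.01). These differences between lists depend on how low members are treated. Over members with at least 1 FPKM alone, the differences were 1.78 and 0.33, and with a pseudocount of 0.1 they were 0.58 and 1.54. The direction was the same in every setting tried, and the lists differ in length and were chosen by hand, so the sizes describe these lists only.

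**Figure D2:**
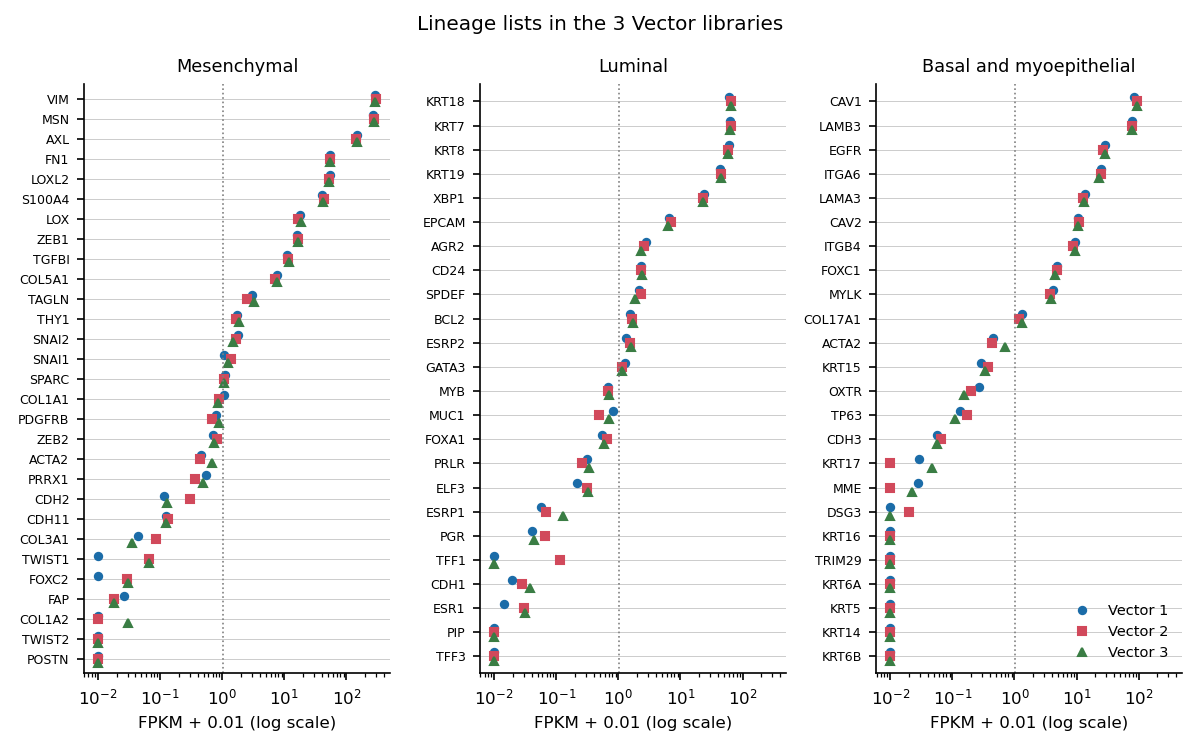
FPKM of the members (horizontal, log scale, without those not reported here, and with a small constant added so that genes without counts appear at the left edge) of the mesenchymal, luminal and basal lists, in order of their mean, with 1 symbol for each of the 3 Vector libraries and a dotted line at 1 FPKM. The mesenchymal list reaches 290.0 FPKM (VIM), the luminal list 64.0 FPKM (KRT18) and the basal list 90.5 FPKM (CAV1), and the basal keratins lie at the left edge.

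Keratins beyond the lineage lists were mostly silent. Of 50 keratin genes, 8 reached 1 FPKM and 29 had no count. KRT81, a hair keratin, was the highest with 60.4, 69.0 and 67.8 FPKM, a range that overlapped that of KRT18. KRT80 had 27.4 ± 0.704 FPKM and KRT10 had 16.4 ± 1.47 FPKM. Among other intermediate filaments, the nuclear lamins LMNB2, LMNA and LMNB1 had 102, 83.1 and 32.4 FPKM as means. NES, the nestin of progenitor cells, had 7.26 ± 0.0993 FPKM. DES, the desmin of muscle, was at 0.00784 FPKM.

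Claudins, whose low level gives the claudin-low subset its name, were not uniformly low. Of 20 tight junction genes, 10 reached 1 FPKM and 4 reached 10 FPKM. The 3 claudins that define the subset had 2.18, 2.28 and 2.59 FPKM for CLDN3, 12.1, 11.9 and 12.2 FPKM for CLDN4 and 12.7, 12.002 and 11.98 FPKM for CLDN7. CLDN3 was the lowest of them in every library, and CLDN4 and CLDN7 overlapped. All 3 lay above the median of all nuclear protein-coding genes (1.70 FPKM). CLDN4 and CLDN7 lay above 10 FPKM, a level that 23.0% of those genes reached. PARD3, a polarity scaffold, led the list with 23.0 ± 0.301 FPKM, and CLDN12 and TJP1 had 14.6 and 7.46 FPKM. Of 16 genes of desmosomes and adherens junctions, 11 reached 1 FPKM. The catenins CTNNA1 and CTNNB1, which link cadherins to actin, had 94.4, 99.5 and 99.6 FPKM for CTNNA1 and 32.5, 33.3 and 33.4 FPKM for CTNNB1, and DSG2, a desmosomal cadherin, had 23.5 ± 0.673 FPKM. The cadherin DSG2 thus stood above CDH1 in FPKM (0.0187).

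Stem-like surface markers of breast cancer are high CD44 with low CD24. CD44, a hyaluronan receptor, had 26.1, 25.1 and 25.9 FPKM and CD24 had 2.32, 2.34 and 2.39 FPKM, and the 2 ranges did not overlap. NT5E, the CD73 ectoenzyme that makes adenosine, was the highest of the 10 markers with 192, 203 and 203 FPKM. PROCR, the protein C receptor, had 15.5 ± 0.288 FPKM. ALDH1A1 and PROM1 were at 0.0203 and 0.00259 FPKM.

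Markers of other cells were listed to see what else the RNA could hold. None of 12 immune genes reached 1 FPKM, with PTPRC, the leukocyte antigen CD45, at 17, 21 and 25 counts, and none of 12 genes of embryonic kidney cells, the type that the study used to package lentivirus, did so. CD68 of the immune list had 2, 4 and 3 counts with 85.8% of its exonic bases shared, so its level is uncertain. Of 12 fibroblast genes only THY1 reached 1 FPKM (1.75 ± 0.105), COL1A1 was at 0.926 ± 0.112 FPKM and DCN and LUM had no count in any library. Of 10 melanocytic genes, MITF and ERBB3 did, at 4.27 and 2.14 FPKM. In bulk RNA, fewer cells of a type and less RNA per cell cannot be told apart. The exception among these lists was endothelial. ESAM, an endothelial adhesion molecule, had 67.1, 67.4 and 67.6 FPKM and ROBO4, a guidance receptor of endothelium, 5.86, 5.68 and 6.43 FPKM, and KDR had 1.25 FPKM. PECAM1 was at 0.919 FPKM and CDH5, EMCN and ERG, which define endothelial cells, had no count. ESAM and ROBO4 both lie on chromosome 11, at chr11:124752583-124762290 and chr11:124883691-124898500, with 121400 bases between them. Genes within that gap were not read. Both genes were named under the list rule, and the distance was looked up after their values were seen.

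Receptors were described next, since they set what the cells can respond to. Of 58 receptor tyrosine kinases, 24 reached 1 FPKM and 7 reached 10 FPKM. AXL led with 144 FPKM. EPHA2, an ephrin receptor, had 95.4, 91.3 and 93.9 FPKM, MET, the receptor of hepatocyte growth factor, had 50.4, 49.0 and 50.8 FPKM and EGFR had 28.1 FPKM as a mean. The order of these 4 was the same in every library. MERTK, of the AXL family, had 12.7 ± 0.471 FPKM. The AXL ligands GAS6 and PROS1 were themselves expressed, at 32.8 ± 0.690 and 18.7 ± 1.04 FPKM. Of the epidermal growth factor family, ERBB3 had 2.14 FPKM and ERBB4 was at 0.0414 FPKM. The kinases KIT, RET, ALK and the NTRK genes, named after their values were seen, all lay below 1 FPKM.

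Of 48 nuclear receptors, 24 reached 1 FPKM and 10 reached 10 FPKM. ESRRA, a regulator of mitochondrial genes, had 28.1, 28.8 and 29.3 FPKM and NR1H2, a sensor of oxysterols, 28.5, 28.7 and 28.1 FPKM. NR2F2 had 23.7 ± 0.679 FPKM, RXRB had 20.7 ± 1.29 FPKM and NR2F6 had 20.2 ± 0.718 FPKM. NR3C1, the glucocorticoid receptor, at 13.5 ± 0.377 FPKM, and the fatty acid sensors PPARD and PPARG, at 15.4 ± 0.137 and 10.95 ± 0.293 FPKM, were named after their values were seen. ESR2, the other oestrogen receptor, was at 0.449 FPKM.

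Among G protein-coupled receptors, a protease receptor and an adenosine receptor were the highest of their list. Of 41 receptors for lipids, nucleotides and proteases, 14 reached 1 FPKM. F2RL1, which is cleaved by trypsin-like proteases, had 104, 106 and 104 FPKM, ADORA2B, an adenosine receptor, had 28.6, 28.4 and 26.2 FPKM and F2R, the thrombin receptor, had 20.4, 21.5 and 21.4 FPKM. LPAR1, for lysophosphatidic acid, had 20.5, 21.7 and 20.9 FPKM, which overlapped F2R. NT5E, the enzyme that supplies adenosine, and the adenosine receptor ADORA2B were thus both above 10 FPKM. Of 53 amine and peptide receptors, 11 reached 1 FPKM, led by LGR4 with 11.5 ± 0.191 FPKM, and the serotonin receptor HTR7 had 10.9 ± 0.323 FPKM. Of 22 chemokine receptors only CCR10 reached 1 FPKM, at 1.00 ± 0.0916, and 31.1% of its exonic bases are shared. CXCR4, a receptor linked to metastasis and named after its value was seen, had 1, 2 and 0 counts.

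Among cytokine receptors, OSMR and IL6ST stood highest. Of 50 receptors, 20 reached 1 FPKM. OSMR, which binds oncostatin M, had 28.7, 27.5 and 27.8 FPKM and IL6ST, its signalling partner, had 27.8, 27.4 and 28.6 FPKM. The 2 ranges overlapped. IL13RA1 and IL4R, which together bind interleukin 4, had 15.6 ± 0.239 and 14.9 ± 0.181 FPKM, and IFNGR2, of the interferon gamma receptor, 12.9 ± 0.0965 FPKM. IFNAR2 and IL10RB lay at 0.266 and 0.105 FPKM, with 83.2% and 38.1% of their exonic bases shared with other genes, so their levels are uncertain. Of 29 receptors of the tumour necrosis factor family, 14 reached 1 FPKM. TNFRSF12A, the receptor of TWEAK, had 96.6, 98.1 and 99.4 FPKM and TNFRSF10B, a death receptor of TRAIL, had 51.2, 51.4 and 50.3 FPKM. TNFRSF21, TNFRSF1A and TNFRSF10D, a decoy receptor of TRAIL, had 39.8, 38.9 and 28.4 FPKM as means.

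In the families of development, a few members held most of the level. TGFBR2 had 76.8, 77.9 and 81.4 FPKM, whereas TGFBR1, its partner in the receptor of transforming growth factor beta, had 7.55, 6.92 and 6.88 FPKM. Of the 14 receptors of that family, TGFBR2 alone reached 10 FPKM. Of 19 Notch, Wnt and Hedgehog receptors, 12 reached 1 FPKM, led by the Wnt coreceptor LRP5 with 58.9, 54.8 and 57.4 FPKM, NOTCH2 with 24.4 ± 0.442 FPKM and the frizzled receptors FZD2 and FZD6 with 22.0 and 21.2 FPKM. SMO, the Hedgehog transducer, was at 0.107 FPKM. Of 26 integrins, 13 reached 1 FPKM. ITGB1, the shared beta chain, had 373, 383 and 381 FPKM, above every alpha chain in every library. ITGA3, a laminin receptor chain, had 85.2, 87.2 and 87.3 FPKM, ITGA2, a collagen receptor chain, had 72.2, 73.9 and 76.0 FPKM, and ITGB5 and ITGA5 had 62.8 and 31.1 FPKM.

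**Figure D3:**
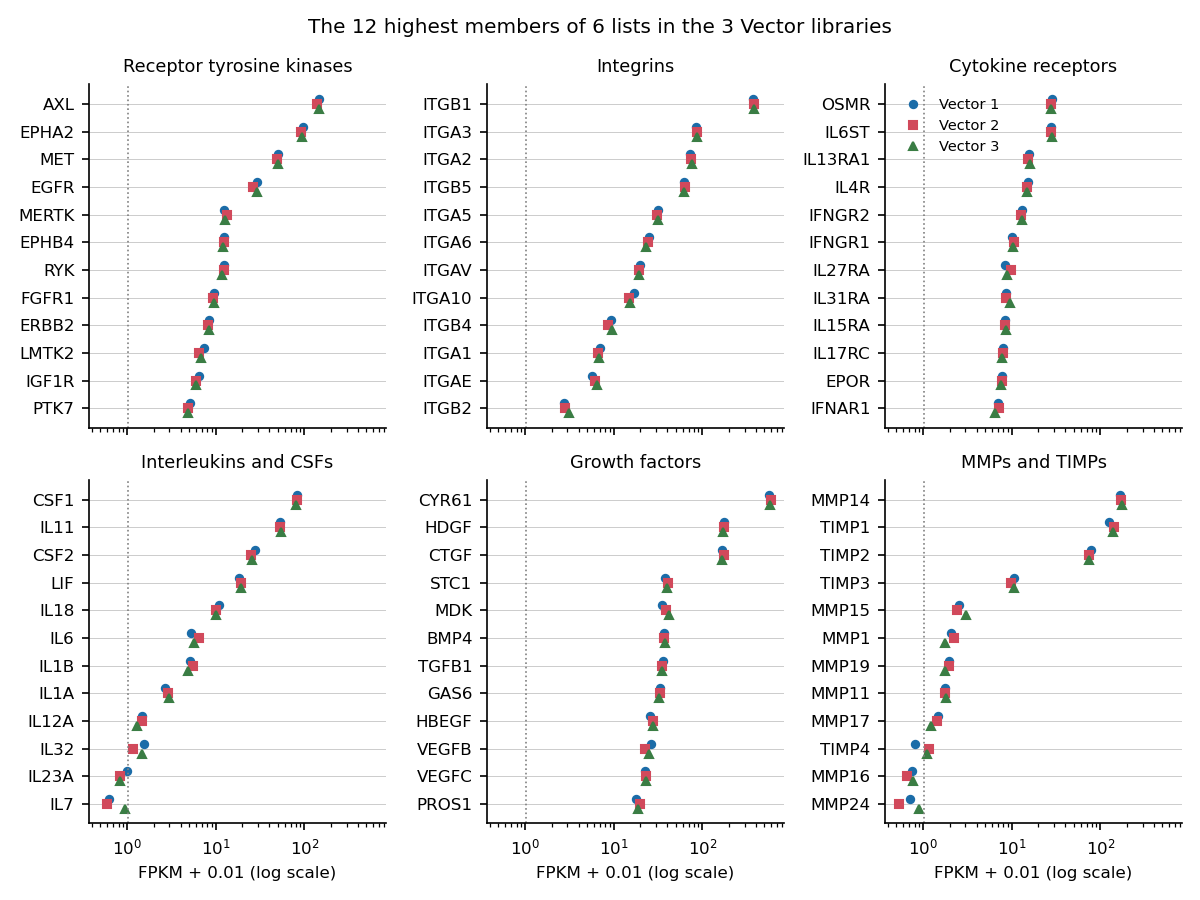
FPKM (horizontal, log scale, with a small constant added) of the 12 highest members of 6 lists, with 1 symbol for each of the 3 Vector libraries and a dotted line at 1 FPKM. AXL (144 FPKM), ITGB1 (379 FPKM), OSMR (28.0 FPKM), CSF1 (82.0 FPKM), CYR61 (577 FPKM) and MMP14 (171 FPKM) lead their panels, and the symbols of the libraries lie close together for members above 10 FPKM.

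Of the secreted genes, IGFBP4 and CYR61 were the highest. Of 69 growth factor genes, 38 reached 1 FPKM and 18 reached 10 FPKM. After CYR61 came HDGF, with 174, 175 and 173 FPKM, and CTGF, a relative of CYR61, with 166, 177 and 166 FPKM. STC1, a glycoprotein hormone, had 39.4 ± 1.59 FPKM and MDK, the heparin-binding factor midkine, had 38.5 ± 3.14 FPKM. Several ligands of abundant receptors were expressed. HBEGF, a ligand of EGFR named after its value was seen, had 27.2 ± 1.37 FPKM and TGFB1 had 35.0 ± 0.543 FPKM. HGF, the ligand of MET, had 0, 0 and 1 counts and IGF1 had no count in any library.

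Cytokine expression was narrow. Of 44 interleukins and colony-stimulating factors, 10 reached 1 FPKM and 15 had no count. CSF1, which maintains macrophages, had 82.6, 82.0 and 81.3 FPKM. IL11 had 52.4, 52.7 and 53.9 FPKM and LIF, like IL11 a cytokine that signals through IL6ST, had 18.5, 19.04 and 19.2 FPKM. CSF2 had 27.9, 24.8 and 25.7 FPKM and IL18 10.3 ± 0.423 FPKM. IL6 was lower, at 5.29, 6.48 and 5.71 FPKM, with 20.7% of its exonic bases shared. Of 43 chemokines, 6 reached 1 FPKM and 27 had no count. CXCL8, CXCL1 and CXCL2, which attract neutrophils, had 27.5, 31.2 and 28.9 FPKM for CXCL8, 11.7, 12.9 and 12.1 FPKM for CXCL1 and 6.48, 8.18 and 6.95 FPKM for CXCL2. CCL28 and CXCL3 followed at 2.17 and 1.099 FPKM. CXCL12, the ligand of CXCR4, had no count in any library.

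Matrix genes ranged widely. Of 44 collagens, 14 reached 1 FPKM, led by COL13A1, a membrane collagen, with 51.2, 50.6 and 51.7 FPKM. COL12A1 had 21.6 ± 1.09 FPKM, COL4A2 of basement membrane had 11.9 ± 0.114 FPKM and COL6A1 and COL6A2 had 11.2 and 8.56 FPKM. Of the fibrillar collagens, named after their values were seen, COL5A1 was at 7.41 FPKM and COL1A1 at 0.926 FPKM, while COL1A2 had 0, 0 and 4 counts and COL3A1 had 4, 9 and 3 counts. Of 48 laminins and matrix glycoproteins, 26 reached 1 FPKM. SRGN, a secretory granule proteoglycan, had 139.5, 156 and 155 FPKM, and LAMC1 and LAMB2 had 54.8 ± 0.715 and 54.0 ± 0.910 FPKM.

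Genes of proteases and genes of protease inhibitors were both expressed, and which inhibitor acts on which protease was not examined. Of 27 matrix metalloproteases and inhibitors, 10 reached 1 FPKM. MMP14, a membrane-anchored collagenase, had 168, 169.8 and 175 FPKM, and the inhibitors TIMP1, TIMP2 and TIMP3 had 135, 75.6 and 10.4 FPKM as means. The secreted gelatinases MMP2 and MMP9, named after their values were seen, had 1, 1 and 5 counts for MMP2 and 7, 3 and 10 counts for MMP9. In the plasminogen system, PLAU, the urokinase, had 111, 115 and 114 FPKM with 31.1% of its exonic bases shared. The cathepsins CTSZ and CTSD had 139 ± 1.74 and 112 ± 1.57 FPKM, and 52.7% of the exonic bases of CTSD are shared. CST3, the cystatin C inhibitor, had 72.2 ± 2.01 FPKM. Of the other 47 secreted genes, IGFBP4 had 748, 739.7 and 739.7 FPKM, LGALS1, a galectin, 349, 366 and 367 FPKM, PPIA 357 FPKM and the lysosomal precursor PSAP 335 FPKM. LGALS3BP followed with 121 ± 1.89 FPKM.

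The surface was described through 83 antigens and adhesion molecules, of which 58 reached 1 FPKM and 41 reached 10 FPKM, and transcript levels do not measure protein at the surface. BSG, a chaperone of lactate transporters, had 218, 231 and 228 FPKM. NT5E and CD63, a tetraspanin of late endosomes with 192, 195 and 205 FPKM, came next and overlapped in range, followed by AXL and TM4SF1, with 112, 122 and 121 FPKM for TM4SF1. Of antigens that antibodies target, named after their values were seen, CD276 had 10.2 ± 0.160 FPKM and NECTIN4 was at 0.0219 FPKM. The checkpoint ligand CD274, or PD-L1, named in the same way, had 6.97, 7.04 and 7.32 FPKM and CD47 had 17.1 ± 0.309 FPKM. Class I antigen presentation was present, with 29.8 and 14.9 FPKM for HLA-B and HLA-C, polymorphic genes whose levels are therefore uncertain. Of 11 class II genes, CD74, the invariant chain, had 20.2, 20.9 and 21.1 FPKM and HLA-DMA had 3.29 ± 0.266 FPKM. HLA-DRA was at 0.855 FPKM and CIITA, the activator of the class, at 0.759 FPKM.

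Of 40 plasma membrane transporters, 31 reached 1 FPKM. The sodium pump beta subunits ATP1B3 and ATP1B1 had 93.4 and 71.1 FPKM. SLC38A2, a carrier of neutral amino acids, had 104, 108 and 107 FPKM and SLC7A5, of the large neutral ones, 66.5, 66.1 and 65.1 FPKM. Of the lactate carriers, which were named after their values were seen, SLC16A3 had 42.2, 40.3 and 42.9 FPKM and SLC16A1 0.359, 0.387 and 0.371 FPKM, and the 2 ranges did not overlap. ABCB1, the efflux pump of multidrug resistance, had 1, 2 and 1 counts.

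Genes that cancers alter were read for their level only, since these tables hold no variants. All 25 RAS, RAF and MAPK pathway genes reached 1 FPKM and 20 reached 10 FPKM. The highest were FOSL1, CCND1 and DUSP genes, which are known to follow ERK activity. FOSL1 had 225 FPKM as a mean, CCND1, the cyclin of the start of the cycle, had 115, 116 and 115 FPKM, and the ERK phosphatases DUSP4, DUSP6 and DUSP5 had 90.3, 74.3 and 58.5 FPKM, with 40.5% of the exonic bases of DUSP6 shared. BRAF had 1.70, 1.52 and 1.63 FPKM and HRAS and NRAS had 38.8 and 22.0 FPKM. Of 29 oncogenes, 26 reached 1 FPKM, among them MCL1 with 95.1, 99.01 and 99.2 FPKM, BCL2L1 with 91.0 FPKM and 43.0% of its exonic bases shared, and MYC. YAP1 and WWTR1, the coactivators whose targets include CYR61, CTGF and ANKRD1, had 31.0 ± 0.861 and 21.7 ± 0.369 FPKM and were named after their values were seen.

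Of 25 tumour suppressor genes, 22 reached 1 FPKM, and the others were CDKN2A, CDKN2B and CDH1. CDKN1B, the p27 inhibitor, had 38.6, 38.0 and 38.5 FPKM, BAP1, a deubiquitinase, had 31.6, 33.5 and 33.4 FPKM and KEAP1, VHL and CDKN1A had 22.3, 21.2 and 18.1 FPKM as means. CDKN2A, which encodes the p16 inhibitor, had 28, 9 and 33 counts (0.374, 0.119 and 0.442 FPKM), with the fewest in Vector 2.

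The low level of CDKN2A was shared by a stretch of the short arm of chromosome 9. The interval was laid out after its values were seen. From HACD4 to DMRTA1, 24 genes were read, which were the protein-coding ones and the antisense gene CDKN2B-AS1. Genes of other classes there were not read. Most of the 24 are type I interferons, which most cells do not express. All 24 lay below 1 FPKM and 19 had no count in any library. Over all 19938 nuclear protein-coding genes, 54.1% reached 1 FPKM and 3812 had no count. MTAP, an enzyme of the methionine salvage that most cells express, had 10, 2 and 6 counts and lies at chr9:21802543-21937651. CDKN2A lies at chr9:21967753-21995301 and CDKN2B, the p15 inhibitor next to it, had 1, 2 and 0 counts. KLHL9, a substrate adaptor of a ubiquitin ligase, had 11, 7 and 5 counts. On the side towards the telomere FOCAD, at chr9:20658309-20995955, had 67, 77 and 100 counts and MLLT3, next to it, had 407, 380 and 386 counts. On the other side ELAVL2 had 0, 2 and 0 counts. In CB1 libraries CDKN2A had 469, 360 and 333 counts, MTAP had 74, 64 and 64 and KLHL9 had 43, 52 and 55. CDKN2B had 2, 12 and 7 counts there and HACD4 had 1, 2 and 1, while DMRTA1 had none. FOCAD, outside the interval, had 109, 138 and 186 counts in CB1. The cause of these counts was not tested. Counts alone do not tell a deleted gene from a silent one.

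Cancer-testis antigens are genes of the germ line that tumours can express. Of the 25 of 26 that the files list by name, 4 reached 1 FPKM and 12 had no count. SPANXB1 had 85.5, 88.2 and 97.5 FPKM, XAGE1B had 11.7, 2.06 and 11.6 FPKM and MAGEC2 and XAGE1A had 2.05 and 1.53 FPKM. SPANXB1 and the XAGE1 genes have close copies among which reads may be divided.

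Transcripts of dividing cells were abundant. All 30 proliferation genes reached 10 FPKM, with a median of 54.5 FPKM. TUBB, a tubulin of the spindle and the resting cell alike, had 396, 417 and 417 FPKM, CKS2, a partner of cyclin-dependent kinases, had 186, 185 and 192 FPKM and PCNA, the sliding clamp of replication, had 131, 147 and 144 FPKM. TUBA1B, with 36.6% of its exonic bases shared, and UBE2C had 183 and 127 FPKM, and MKI67, the marker of cycling cells, had 65.1, 61.4 and 61.8 FPKM and was named after its value was seen. No measurement here gives the share of cells in each phase.

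Genes of translation and glycolysis were near the top of the ranks, with exceptions that share exons with other genes. Of 79 ribosomal protein genes found by name, 74 reached 10 FPKM and 56 reached 100 FPKM, and of 22 translation factors 18 reached 10 FPKM. All 20 glycolysis genes reached 1 FPKM. ENO1 had 435, 466 and 465 FPKM and TPI1 had 304, 339 and 328 FPKM, and PKM and PGAM1 had 286 and 227 FPKM. Of 37 actin and cytoskeleton genes, 36 reached 10 FPKM. Against these levels, EEF1G, a subunit of the elongation factor that most cells express, had no count in any library, with 99.9% of its exonic bases shared. ALDOA, the muscle-type aldolase that most cells express, had 3.01, 3.02 and 3.21 FPKM with 53.5% shared. RPS10 had 22, 27 and 35 counts with 39.4% shared, EIF4A1, the helicase of initiation, had 2.09, 2.16 and 1.67 FPKM with 48.6% shared, and MIF, a cytokine, had 3, 3 and 3 counts with 61.9% shared. RPL36A was at 1.47 FPKM with 8.40% shared. These genes were named after their values were seen.

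That pattern was measured over all nuclear protein-coding genes by the share of exonic bases that another gene covers in the annotation. Of 11089 genes that share no base, 5529 (49.9%) reached 1 FPKM, and of 6692 that share under 25%, 4570 (68.3%) did. The share was 673 of 1425 genes (47.2%) at 25 to 75%, 20 of 382 (5.24%) at 75 to 99% and 0 of 350 at 99% or more, of which 317 had no count. Of the genes with at least 75% of bases shared, 5 of 601 reached 1 FPKM when the partner lay on the same strand and 11 of 49 when it lay on the opposite strand. Levels of genes with shared exons are therefore uncertain. How reads in shared exons were handled was not given in the sources used here, and the part of this in any level was not tested.

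SCD and FADS2, desaturases that the study examined, and GPX4 and SLC7A11, genes of the defence against lipid peroxidation, were each above 1 FPKM in all 3 libraries. SCD, which makes monounsaturated fatty acids, had 132, 130.2 and 134 FPKM and FADS2, a desaturase of polyunsaturated ones, had 19.7, 19.1 and 19.7 FPKM. GPX4, which reduces lipid peroxides, had 108, 113 and 118 FPKM and SLC7A11, the cystine carrier, had 7.82, 7.88 and 8.31 FPKM. SCD was the highest of the 4 and SLC7A11 the lowest in every library.

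By annotated class, protein-coding genes took 97.4 ± 0.0191% of the counts and 91.3 ± 0.0425% of the FPKM sum. Mitochondrial ribosomal RNA took 0.698%, lincRNA 0.440%, processed pseudogenes 0.339% and antisense genes 0.320% of the counts. Of 7629 lincRNA genes, 340 (4.46%) reached 1 FPKM. NORAD, a cytoplasmic RNA that binds PUMILIO proteins, had 92.5, 93.9 and 96.5 FPKM and MANCR had 83.2, 85.5 and 86.8 FPKM. SFTA1P, SNHG8, NEAT1 and SNHG19 followed with 43.7, 36.0, 35.2 and 29.8 FPKM. NEAT1 is the scaffold of paraspeckles and SNHG8 and SNHG19 host small nucleolar RNAs. LINC00973, BX640514.2, AC015922.2 and AP005233.2, for which no role is given, had 26.3, 25.3, 21.8 and 21.1 FPKM.

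Of 5583 antisense genes, 459 (8.22%) reached 1 FPKM. AC099850.3 was the highest with 43.6, 44.5 and 51.1 FPKM and FGD5-AS1 had 32.1, 32.8 and 33.6 FPKM. AL355312.3 and AC005288.1 had 26.7 and 26.3 FPKM, and SERTAD4-AS1, AL360181.2, SNHG7, TGFB2-AS1, WAC-AS1 and AL513165.1 lay between 13.4 and 20.6 FPKM. The library kit named in the methods does not mark strand, so reads of an antisense gene and of the gene opposite cannot be told apart where their exons meet. Of 10191 processed pseudogenes, 386 (3.79%) reached 1 FPKM. The highest were copies of very abundant genes, RPS28P7 with 419, 492 and 439 FPKM, TMSB4XP8 with 322, 408 and 358 FPKM and EEF1A1P5 with 217, 244 and 238 FPKM. RPL39P3 and RPL41P1 had 212 and 108 FPKM. Their parents TMSB4X, EEF1A1 and RPL41 were at 1267, 1584 and 760.2 FPKM, and how reads were divided between copy and parent was not tested. Likewise MTATP6P1 and MTND2P28, nuclear copies of mitochondrial genes, had 452 and 315 FPKM. RN7SL2, an RNA of the signal recognition particle, had 1942, 1729 and 2074 FPKM. Short genes reach a high FPKM with few counts, and MIR4292, the highest of the microRNA genes, held only 57, 40 and 35 counts.

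The spread between the 3 Vector libraries was small. The common biological coefficient of variation by edgeR was 0.0351 in Vector libraries, against 0.118 in CB1 libraries. Over all 58735 genes, the Pearson correlation of log2(FPKM + 1) between library pairs was 0.994 and the Spearman rank correlation was 0.906 to 0.908. Of these genes, 30449 had no count in any Vector library. Both correlations are given as a description over genes that share library and depth. To see which genes varied more than counting allows, the 3 counts of each gene were tested against the shares of the library sizes scaled by edgeR (chi-square test with 2 degrees of freedom, Benjamini-Hochberg adjusted). Of 15588 genes with a mean of at least 10 counts, 1207 (7.74%) varied beyond counting noise, and 3390 (21.7%) had an unadjusted p below the threshold. By the same adjusted test, 7780 of 16310 genes (47.7%) did so in the CB1 libraries. Of the 1207 genes, 888 (73.6% of the Vector calls and 11.4% of the CB1 calls) were called in both groups. Most of these differences were small, since the highest library exceeded the lowest by a median of 1.15 times and 103 of the genes reached a ratio of at least 2.

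The spread of genes of low count was near that of counting alone, and that of abundant genes was above it. The median SD was 18.8% of the mean at 10 to 100 counts, where counting alone gives 19.2%. It was 5.51% at 100 to 1000 counts against 4.95% for counting, and 3.02% at 1000 to 10000 counts against 2.35%. Above 10000 counts it was 2.58% against 0.822%, and 109 of 166 genes (65.7%) were called. At high counts the test therefore called differences of a few percent, which were not detectable at low counts.

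**Figure D4:**
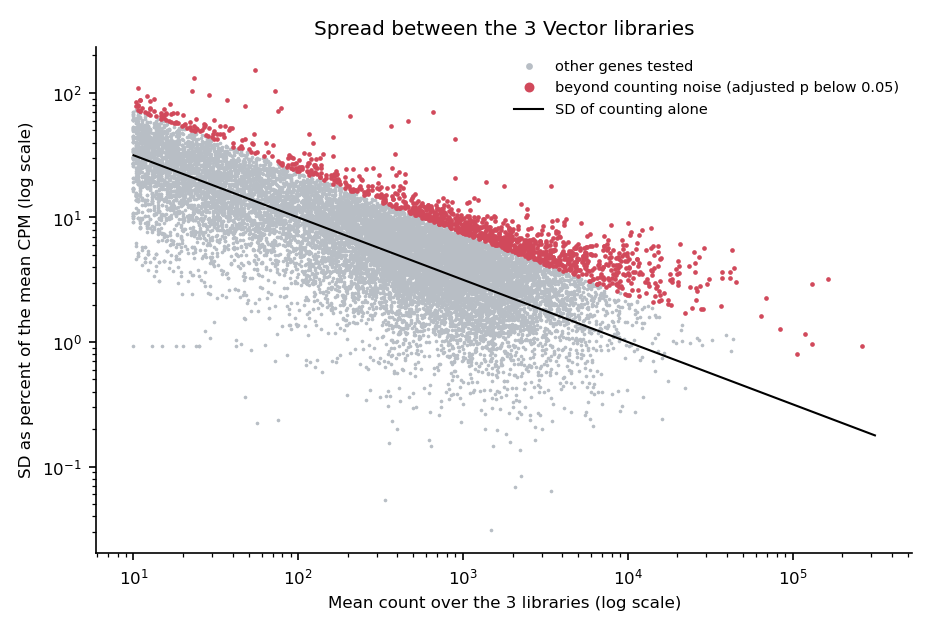
SD between the 3 Vector libraries as percent of the mean CPM (vertical, log scale) against the mean count (horizontal, log scale), 1 point for each gene tested. Points in red are the 1207 genes beyond counting noise and the black line is the SD that counting alone gives. The cloud follows the line at low counts and lies above it at high counts, where the median SD is 2.58% against 0.822%.

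The library that stood apart was Vector 1. Among the 1207 genes, Vector 1 was the farthest from the other libraries in 679 (56.3%), against 37.3% of all genes tested. In pairs, 1041 genes were called between Vector 1 and Vector 2, 649 between Vector 1 and Vector 3 and 185 between Vector 2 and Vector 3, so that leaving out Vector 1 leaves 185. The ribosomal protein genes moved with it. Of 79, 64 (81.0%) varied beyond counting noise, against 7.74% of all genes, and 73 (92.4%) were lowest in Vector 1, against 36.3% of all genes tested. Their median in Vector 1 was lower by 0.10 on the log2 scale than in the other libraries, and their share of the counts was 4.31% in Vector 1, 4.58% in Vector 2 and 4.57% in Vector 3. RPLP1 had 10995, 12832 and 12732 counts and RPS27 7071, 8282 and 8364 counts, both fewest in Vector 1 (edgeR-scaled chi-square test, adjusted p = 1.62e-30 for RPLP1 and 1.86e-23 for RPS27). These genes are short and abundant. Gene length was examined in 8 bins of the nuclear protein-coding genes that were tested and had a mean of at least 5 CPM. Vector 1 was lower by 0.05 on the log2 scale in the shortest bin (381 to 2573 bases). It was higher by 0.04 in the longest (10174 bases and more). The part of length in the ribosomal difference was not tested.

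Of 37 actin and cytoskeleton genes, 20 (54.1%) were called, against 7.74% of all genes, and 29 (78.4%) were lowest in Vector 1, against 36.3% of all genes. Other lists above 7.74% included translation factors, with 9 of 21 called (42.9%), glycolysis, with 8 of 20 (40%), and proliferation, with 11 of 30 (36.7%). Tumour suppressors, with 7 of 23 called (30.4%), went the other way in Vector 1. Of these 23, 14 were highest in Vector 1 and 5 were lowest there. Over all 15588 genes tested, 5350 were highest in Vector 1 and 5662 (36.3%) were lowest there. The part of gene length in this list was not tested. The share called rises with the count, from 2.76% of all genes at 10 to 100 counts to 15.1% at 1000 to 10000 and 65.7% above 10000 counts, and the part of this in the counts of the lists, ribosomal proteins included, was not tested.

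Several of the 15 genes with the widest range have near-identical copies, among which reads can be divided. XAGE1B, at chrX:52512077-52520803, had 287, 51 and 283 counts in Vector 1, 2 and 3, a ratio of 5.73 between the highest and the lowest scaled count (chi-square test on edgeR-scaled sizes, adjusted p = 8.68e-37), and its copy XAGE1A had 32, 23 and 30 counts. The low value in Vector 2 had no counterpart in CB1, where XAGE1B had 396, 380 and 290 counts. SMN1, the survival of motor neuron gene at chr5:70925030-70953942, had 286, 503 and 1170 counts (ratio 4.08, adjusted p = 1.54e-138 by the same edgeR-scaled test), and its copy SMN2 had 285, 275 and 256 counts. The sum of SMN1 and SMN2 still differed, at 571, 778 and 1426 counts. In CB1 libraries SMN1 had 414, 1244 and 1011 counts.

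Of the next genes, the pseudogene GTF2IP1 had 772, 356 and 258 counts (ratio 3.004), while GTF2I, its functional relative, had 1053, 1077 and 1105 counts. EIF3C, a subunit of an initiation factor, had 678, 674 and 1339 counts (ratio 2.01) and its copy EIF3CL had 39, 148 and 48 counts. RPL14P1 had 261, 598 and 239 counts beside 6989, 7205 and 7668 counts of RPL14. U2AF1, a splicing factor, had 79, 177 and 111 counts and its copy U2AF1L5 had 108, 112 and 103 counts. GTF2H2B, AC126755.1, FAM45BP, AC005726.1, MRPL23 and TCEA1P2 had ratios between 1.86 and 2.68. How reads were divided between copies was not tested.

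CYP2S1, PTPRU and FOS were among the 15 genes without a listed copy. FOS, an immediate early gene of AP-1, had 117, 219 and 152 counts (ratio 1.84, chi-square test on edgeR-scaled sizes, adjusted p = 1.57e-05), with the highest count in Vector 2. CYP2S1, a cytochrome, had 112, 58 and 92 counts and PTPRU, a receptor phosphatase, had 117, 92 and 62 counts. Of the members of the lists, CDKN2A also varied (edgeR-scaled chi-square test, adjusted p = 0.0181), with 28, 9 and 33 counts, as did the cystatin CST1, with 392, 565 and 380 counts, and SERPINB2, with 30, 70 and 42 counts. CX3CL1, a membrane-bound chemokine, had 15, 45 and 26 counts. In CST1, SERPINB2 and CX3CL1 Vector 2 was the highest library.

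**Figure D5:**
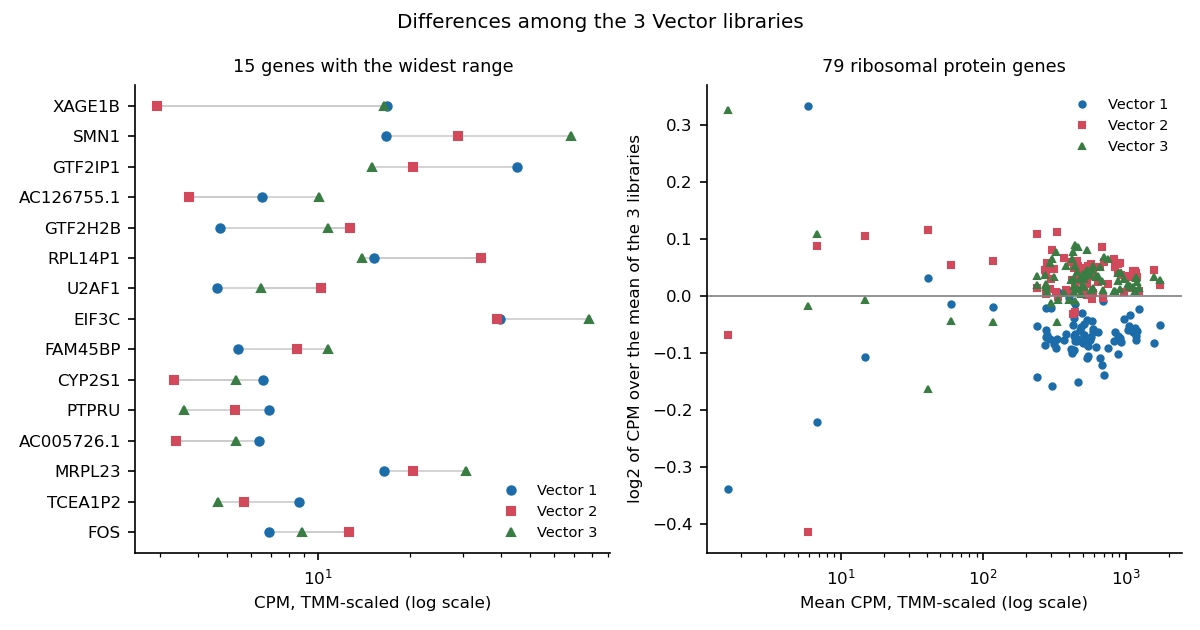
Left, CPM (horizontal, log scale) of the 15 genes with the widest range among those beyond counting noise with a mean of at least 5 CPM, with 1 symbol for each Vector library. Right, log2 of the CPM over the mean of the 3 libraries (vertical) against the mean CPM (horizontal, log scale) for 79 ribosomal protein genes, where the symbols of Vector 1 lie mostly below 0, and Vector 1 is the lowest library in 73 of them.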

How the data were processed

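RNA was selected on oligo(dT) beads and sequenced on an Illumina instrument, and per the labels and methods the authors used only uniquely mapped reads in exons. HISAT2 2.0.5 and featureCounts 1.5.0-p3 were named in the submitters' processing notes. The genome build was not given in the sources used here, and the start, end and length of all 58735 genes equalled GENCODE 29 on GRCh38. The deposited tables hold whole-number counts per gene and FPKM for 1 library each. The deposited FPKM equalled the count per kilobase of merged exons and per 1000000 counts, times a constant of 0.981 to 0.997 per Vector library. Of the gene names, 27 read as dates and were left out of name searches.

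Groups were taken from the sample titles. Levels were described on the mean of the deposited FPKM over the 3 Vector libraries, with 1 FPKM as the level of detection, and no contrast between groups was fitted. Counts were scaled with edgeR 4.0.16 (TMM) in R 4.3.3, and each gene with a mean of at least 10 counts was tested by a chi-square test of its 3 counts with Benjamini-Hochberg adjustment and a threshold of 0.05. The biological coefficient of variation was estimated with edgeR. DESeq2 1.42.0 size factors were an alternative. Exon sharing was computed from GENCODE 29, and start sites were read from RefSeq promoters of GRCh38.p14. The test was checked on simulated data. Tables were handled with pandas 2.3.3 and figures drawn with matplotlib 3.10.9 in Python 3.11.15.

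The genes named were the 30 with the highest mean FPKM, the 10 highest lincRNA, antisense and pseudogene genes, the 5 highest members of each list with the genes that define a lineage, the 15 of widest range with at least 5 CPM, and CNR1, SCD, FADS2, SLC7A11 and GPX4, though not every member of each list is printed and some genes are not reported here. Other genes were named after their values were seen. The members and lists were chosen with earlier results of these data known.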

Additional observations from a re-analysis of the deposited data

How the results depend on the processing

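Over 53 alternatives, 33 left the value within the spread of the libraries or a small ratio of it (1.5 times for a count) and 20 moved it. A direction was reversed in 0 of them, but only the differences between lists could change sign. Counts, shares and the coefficient of variation cannot fall below 0. The number of genes beyond counting noise was 607 at an adjusted p below 0.01 and 597 over the genes that share no exonic base, an alternative chosen after seeing the data. Leaving out each library in turn gave 185 to 1041 genes and a common biological coefficient of variation of 0.0255 to 0.0409, with the lowest of both without Vector 1. The number of protein-coding genes at 1 FPKM was 5537 over genes that share no exonic base, which are fewer by construction. The top 100 genes held 13.7% of the counts without mitochondrial genes and 38.5% of summed FPKM, and protein-coding genes held 98.0% and 91.3%. The mitochondrial share was 25.5% of summed FPKM. The mesenchymal minus luminal difference was 0.58 with a pseudocount of 0.1, 0.49 in TPM, 1.78 over members at 1 FPKM or more and 0.72 as a difference of means. The mesenchymal minus basal difference was 1.54, 1.21, 0.33 and 0.67 in the same settings. The causes of these shifts were not tested. No paired analysis was possible because the test holds the Vector group alone. Depth limits the low genes, since the SD expected from counting is 19.2% at 10 to 100 counts, and 3 libraries give a coarse SD for each gene.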
